A study of Homo sapiens with 19 samples.

Results

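The binding of ERRα was examined at 8 core genes of the PI3K, AKT and mTOR pathway: PIK3CA, AKT1, AKT2, TSC1, TSC2, MTOR, RPTOR and RICTOR. These 8 are among the 20163 protein-coding genes of the annotation used. In each of 8 deposited peak lists, every peak whose centre lay within 20 kb of an annotated transcription start of one of these genes was taken, and 113 such peaks were found. All 8 genes had at least 1 peak in at least 1 list.

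ERRα (gene ESRRA) is an orphan nuclear receptor that binds the ERR response element (ERRE) and is known as a regulator of energy metabolism. ChIP-seq recovers the DNA bound by a factor with an antibody, and a peak is a region where reads pile up over the input DNA. The study asked where ERRα sits in HER2-positive breast cancer cells once growth factors activate their receptors, and once the cells have become resistant to lapatinib, an inhibitor of the EGFR and HER2 kinases.

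The lists come from 13 ChIP and 6 input libraries. SKBr3 and BT-474, both established breast cancer lines with amplified HER2, were serum-starved for 24 h and then received vehicle, 100 μM EGF or 100 μM heregulin (HRG) for 90 min (the concentration as the labels give it). Untreated parental pSKBr3 cells were compared with lapatinib-resistant LRSKBr3 cells, which were kept in 2 μM lapatinib, so that the line and the drug cannot be told apart. The labels describe the serum starvation for the growth factor experiment and give none for pSKBr3 and LRSKBr3. The SKBr3, pSKBr3 and LRSKBr3 lists each pool 2 ChIP libraries against 1 input. Each BT-474 list rests on 1 ChIP library, and the 3 BT-474 lists share the input of vehicle-treated cells.

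Each condition is thus a single list, so no spread between cultures can be given and no difference below was tested. The lists hold between 22539 peaks (pSKBr3) and 41271 peaks (BT-474 on HRG), and with no tag counts in them the sequencing depth is unknown. The strength of a peak is given here as its percentile, the rank of its deposited MACS score within its own list, where 100 would be the highest. As a check on the antibody target, the ESRRA start lay under a peak in all 8 lists, at percentiles of 98.3 to 98.9.

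PI3K, of which PIK3CA encodes a catalytic subunit, is recruited by activated receptor tyrosine kinases and makes a lipid messenger that brings AKT kinases to the membrane. AKT phosphorylates the TSC1-TSC2 complex, the brake on the small GTPase RHEB, and RHEB in turn activates mTOR. The kinase mTOR works in 2 complexes, mTORC1 with the scaffold RPTOR, which drives protein synthesis and growth, and mTORC2 with RICTOR, which phosphorylates AKT.

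A few windows from peaks at these genes are shown for the words they hold, since they carry the ERRE or AP-1 letters at sites described below. AP-1 is the Jun/Fos factor that growth factors activate. The words sought on both strands were TCAAGGTCA (the ERRE), its looser form TNAAGGTCA, which contains the first, and TGACTCA with its reverse complement TGAGTCA (AP-1). All are plus-strand reference sequence of GRCh37 (hg19), with the words in capitals. A word is a match of letters and not a measured contact.

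RPTOR intron 3, chr17:78680500-78680680: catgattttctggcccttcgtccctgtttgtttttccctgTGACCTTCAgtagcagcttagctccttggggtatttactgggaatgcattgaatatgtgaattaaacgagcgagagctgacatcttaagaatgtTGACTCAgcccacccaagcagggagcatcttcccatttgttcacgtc
RICTOR, upstream, chr5:39081242-39081330: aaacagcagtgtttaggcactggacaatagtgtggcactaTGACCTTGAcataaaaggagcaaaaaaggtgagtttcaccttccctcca
AKT2, beyond the 3′ end, chr19:40725881-40725996: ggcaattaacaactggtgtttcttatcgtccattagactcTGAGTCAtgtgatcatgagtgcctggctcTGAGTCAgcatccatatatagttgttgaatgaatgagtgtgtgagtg
MTOR intron 36, chr1:11194567-11194653: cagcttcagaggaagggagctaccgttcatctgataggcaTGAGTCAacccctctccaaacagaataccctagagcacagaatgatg
PIK3CA, upstream, chr3:178865355-178865441: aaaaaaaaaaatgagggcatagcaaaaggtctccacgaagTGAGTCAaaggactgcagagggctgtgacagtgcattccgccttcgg

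The RPTOR window belongs to a site present in all 8 lists and holds TNAAGGTCA on the minus strand with an AP-1 word close by. The RICTOR window holds the ERRE on the minus strand, under peaks of 5 lists. The AKT2 window holds 2 AP-1 words under peaks that, among the 8 lists, came only from cells given EGF or HRG. The MTOR site was bound in 7 lists and the PIK3CA site in 2.

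A member gene was counted as bound in a list when it had at least 1 peak in range. In LRSKBr3 all 8 genes were bound, against 69.9% of all protein-coding genes, and in pSKBr3 6 of 8 were, against 57.1%. Of the SKBr3 lists, vehicle gave 7 of 8 (54.1% of all genes), EGF 5 of 8 (56.3%) and HRG 7 of 8 (66.4%). In BT-474 the numbers were 4 of 8 on vehicle (53.0%), 5 of 8 on EGF (42.3%) and 5 of 8 on HRG (55.3%). MTOR and RPTOR were bound in all 8 lists, as were 26.8% of all genes, and no member lacked a peak throughout, as 15.3% of all genes did. In BT-474 on EGF and HRG the only MTOR peak lay inside the gene, in intron 36. These genes have a median of 16.5 annotated starts against 5.0 over all genes, and the stretch within range of them has a median length of 99.2 kb against 49.3 kb, so that more peaks could fall in range.

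**Figure D1:**
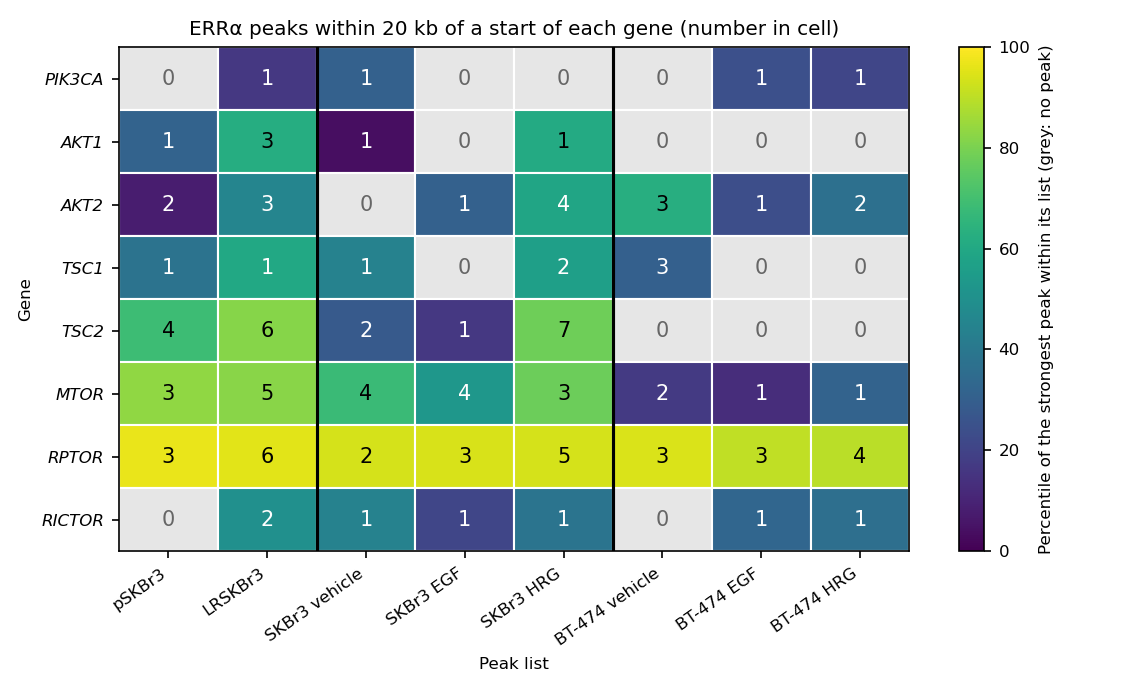
Number of ERRα peaks within 20 kb of a start of each gene (rows) in each list (columns), coloured by the percentile of the strongest peak within its list, with grey for no peak and black lines between cell backgrounds. RPTOR is at 89.7 or above in every list by its strongest peak, LRSKBr3 has a peak at all 8 genes, and the BT-474 lists have none at AKT1 or TSC2.

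The number of peaks moved more than the number of genes. LRSKBr3 gave 27 peaks and pSKBr3 14, SKBr3 gave 12 on vehicle, 10 on EGF and 23 on HRG, and BT-474 gave 11, 7 and 9. Per gene, the means were 3.38 in LRSKBr3 and 1.75 in pSKBr3, against 1.90 and 1.16 over all protein-coding genes. The SKBr3 lists had means of 1.5 (vehicle), 1.25 (EGF) and 2.88 (HRG), against 1.13, 1.18 and 1.74. The BT-474 lists had 1.38, 0.875 and 1.12, against 1.04, 0.740 and 1.16, so that on HRG the members had slightly fewer. Single member peaks ranked high, such as those at RPTOR intron 3 (87.7 to 94.8), but the median percentile of the member peaks ran from 24.4 (BT-474 on EGF) to 50.4 (SKBr3 on HRG), whereas peaks near any protein-coding gene had medians of 51.4 to 54.7.

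Merged over the 8 lists, the peaks form 39 sites. Of these, 16 were found in a single list (41.0%, against 35.9% of sites near any gene) and 2 in all 8 (5.13%, against 8.90%). Both of the latter lie in RPTOR.

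**Figure D2:**
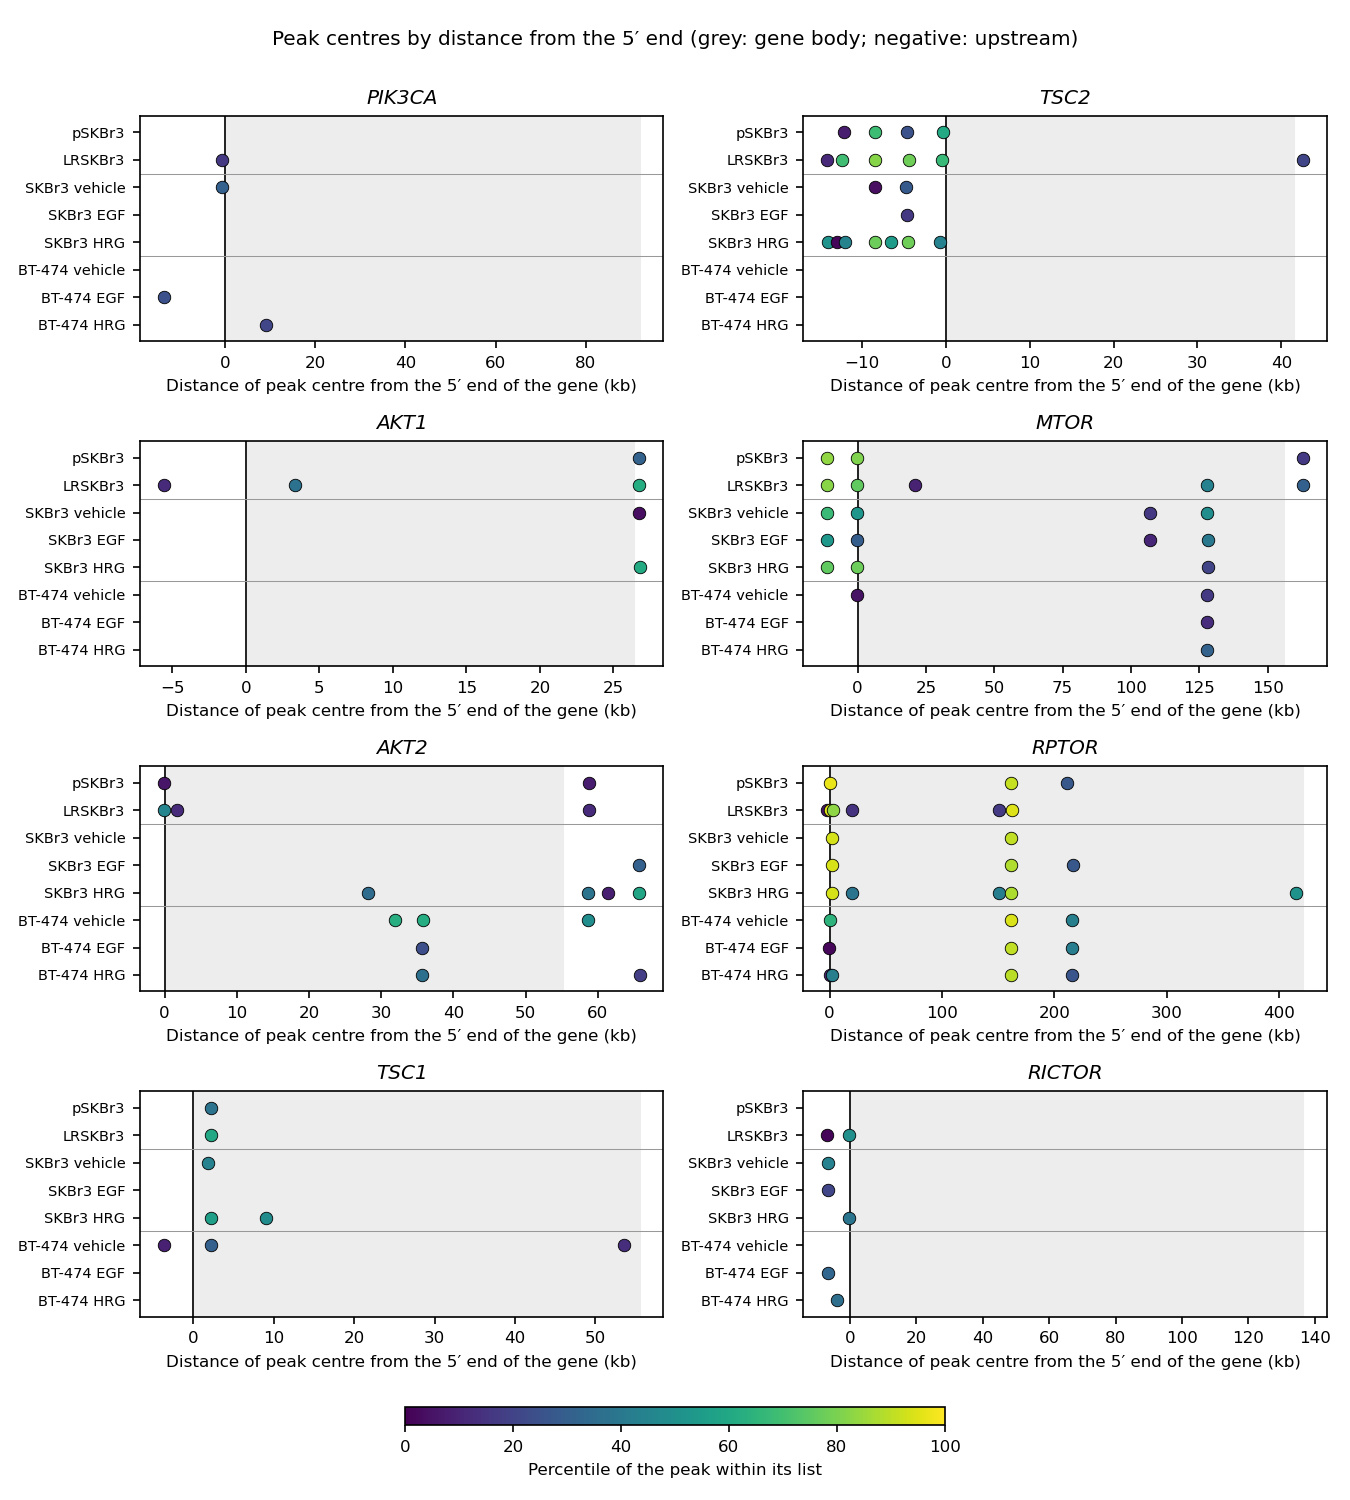
Centre of every member peak by its distance in kb from the 5′ end of the gene (negative is upstream), 1 panel per gene and 1 row per list, coloured by percentile within the list, with the gene body in grey. The RPTOR peaks near the start and in intron 3 recur in every list, whereas TSC2 peaks stack on the upstream side and are absent from BT-474.

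PIK3CA (ENSG00000121879, chr3:178865902-178957881, plus strand) had at most 1 peak in a list. A peak just upstream of the start, in intron 1 of the divergent transcript PIK3CA-DT, was called in SKBr3 on vehicle (673 bp upstream, percentile 30.6) and in LRSKBr3 (682 bp upstream, 16.1). It was not called in pSKBr3, nor in SKBr3 on EGF or HRG. BT-474 had other sites, at 13667 bp upstream on EGF (24.4) and in PIK3CA intron 1 at 9007 bp on HRG (20.9), and none on vehicle. Every PIK3CA peak thus ranked in the lower part of its list, and the AP-1 word printed above lies 169 bp from the centre of the vehicle peak.

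AKT1 (ENSG00000142208, chr14:105235686-105262088, minus strand) encodes the kinase that PI3K signalling activates in most tissues. Its recurrent site lies just beyond the 3′ end of the gene, towards SIVA1, which encodes an apoptosis-inducing factor. This site is 24670 to 24731 bp from the nearest start of a protein-coding transcript and is in range through another transcript start. There the percentile was 31.4 in pSKBr3, 61.9 in LRSKBr3, 3.88 in SKBr3 on vehicle and 60.7 on HRG. LRSKBr3 is about level with HRG-treated SKBr3 at this site, and the 2 untreated SKBr3 backgrounds are lower. LRSKBr3 alone among the 8 lists had 2 further peaks, in AKT1 intron 3 (37.7), at 3347 bp from the 5′ end, and in the coding exon of the zinc finger gene ZBTB42 (11.8), at 5579 bp upstream. No AKT1 peak was called in SKBr3 on EGF or in any BT-474 list, where the nearest peak was between 26967 and 99588 bp from a start.

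AKT2 (ENSG00000105221, chr19:40736224-40791443, minus strand) encodes the AKT kinase best known for insulin action. It was the 1 member without a peak in SKBr3 on vehicle and with a peak on each growth factor, as were 6.0% of all genes. The site common to both growth factors lies beyond the 3′ end, 16099 to 16225 bp from the nearest AKT2 start, and is also within range of CCNP, TTC9B and MAP3K10, a kinase upstream of JNK. Its percentile was 30.7 in SKBr3 on EGF, 58.7 in SKBr3 on HRG and 18.1 in BT-474 on HRG, with no peak on vehicle in either line and none in BT-474 on EGF, pSKBr3 or LRSKBr3. The site holds 4 AP-1 words, of which 1, outside the printed window, lies 52 to 74 bp from the 3 peak centres.

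HRG gave 3 further AKT2 peaks in SKBr3, in CCNP intron 3 (8.43), between CCNP and AKT2 (37.9) and in AKT2 intron 2 (35.1). The second of these sites also had a weak peak in pSKBr3 (7.87) and LRSKBr3 (11.8) and a stronger one in BT-474 on vehicle (48.5). At the AKT2 start itself, only pSKBr3 (5.69) and LRSKBr3 (45.4) had a peak, and LRSKBr3 had another in intron 1 (12.1). BT-474 used AKT2 intron 4 instead, with 1 site at 61.8 on vehicle, 23.5 on EGF and 36.6 on HRG, and another on vehicle alone (62.7). The order of treatments at AKT2 therefore differed between the lines, with more peaks on HRG in SKBr3 and more on vehicle in BT-474.

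TSC1 (ENSG00000165699, chr9:135766735-135822261, minus strand) encodes hamartin, the stabilising partner of TSC2. A site at the start of alternative TSC1 transcripts, where the annotation also places a transcript of the neighbouring gene GFI1B, was called in 5 lists. Its percentile was 38.1 in pSKBr3, 59.9 in LRSKBr3, 44.1 in SKBr3 on vehicle, 55.9 in SKBr3 on HRG and 30.4 in BT-474 on vehicle. It was absent on EGF in both lines and on HRG in BT-474. SKBr3 on HRG had a second peak, in TSC1 intron 1 (48.3), with 2 AP-1 words in it. BT-474 on vehicle had 2 weak peaks of its own, in exon 23 within the 3′ untranslated region (13.2) and 3714 bp upstream (9.30). Each of these BT-474 peaks has an ERRE within 100 bp of its centre.

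TSC2 (ENSG00000103197, chr16:2097968-2139492, plus strand) encodes tuberin, the subunit that acts on RHEB. It had 4 peaks in pSKBr3, 6 in LRSKBr3, 2 in SKBr3 on vehicle, 1 on EGF, 7 on HRG and none in BT-474. All but 1 of these peaks lay upstream of TSC2, over or beside NTHL1, a DNA repair glycosylase gene that reads away from TSC2, and the scaffold gene NHERF2, so that they are equally in range of these genes. The BT-474 lists had no peak nearer than 32163 bp to a TSC2 start.

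The TSC2 peak in the intergenic stretch 8441 to 8459 bp upstream had a percentile of 68.5 in pSKBr3, 82.0 in LRSKBr3, 3.85 in SKBr3 on vehicle and 77.7 on HRG, with none on EGF. The peak in NTHL1 around intron 4, 4353 to 4703 bp upstream, was the TSC2 site present on all 3 SKBr3 treatments. There the percentile was 25.3 in pSKBr3, 77.9 in LRSKBr3, 27.9 in SKBr3 on vehicle, 16.2 on EGF and 78.1 on HRG. In both places LRSKBr3 and HRG-treated SKBr3 stand together above SKBr3 on vehicle. The pSKBr3 percentile was 13.6 points below that of LRSKBr3 at the first site and 52.6 points below it at the second.

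Nearest to the TSC2 start, in NTHL1 intron 1, the peak had a percentile of 60.2 in pSKBr3, 67.2 in LRSKBr3 and 44.4 in SKBr3 on HRG, with none on vehicle or EGF. In NHERF2 intron 2, at least 12017 bp upstream, pSKBr3 had 1 peak (7.5), LRSKBr3 had 2 (69.5 and 11.7) and SKBr3 on HRG had 3 (51.2, 44.7 and 1.56). HRG alone gave a peak in the stretch 6586 bp upstream (54.9). LRSKBr3 alone gave 1 beyond the 3′ end, in exon 45 of PKD1 (21.0), the gene of polycystin 1.

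**Figure D3:**
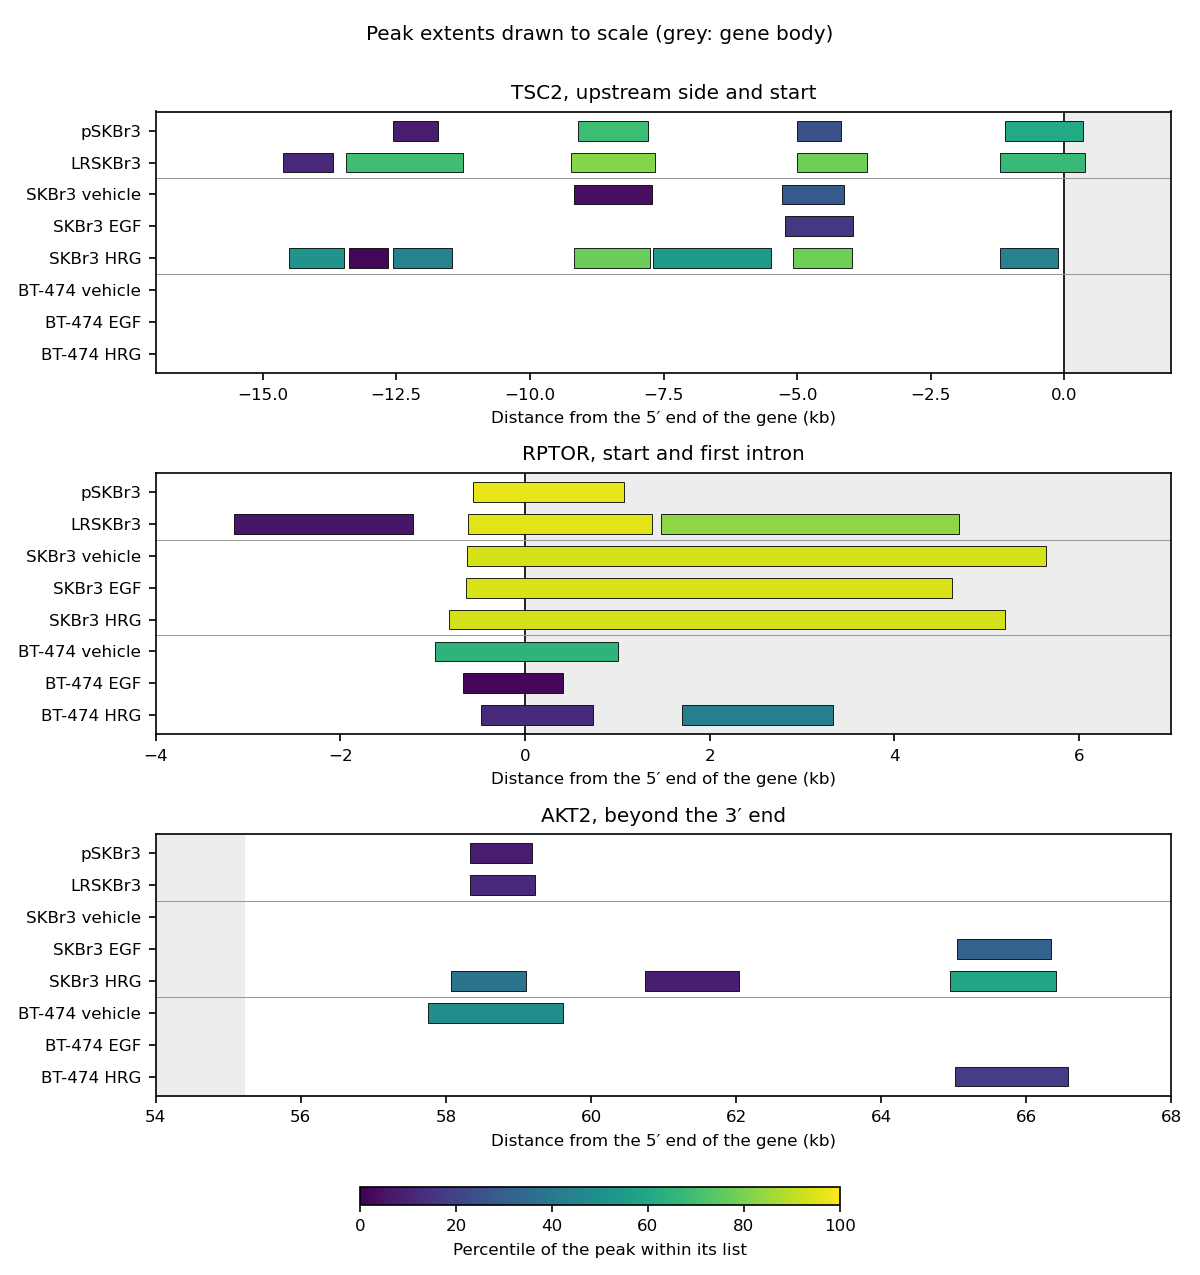
Extents of the peaks, to scale, by distance in kb from the 5′ end of TSC2, RPTOR and AKT2, 1 row per list, coloured by percentile within the list, with the gene body in grey. Upstream of TSC2 the LRSKBr3 and SKBr3 HRG rows are the fullest, the RPTOR start carries wide peaks in SKBr3, and the outermost AKT2 site is filled in growth factor rows only.

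MTOR (ENSG00000198793, chr1:11166592-11322613, minus strand) encodes the kinase shared by both complexes. Its start carried a peak in 6 lists, with the centre 78 to 397 bp upstream, at a percentile of 80.5 in pSKBr3, 75.6 in LRSKBr3, 52.7 in SKBr3 on vehicle, 29.5 on EGF, 77.6 on HRG and 4.69 in BT-474 on vehicle. pSKBr3 and LRSKBr3 differ little there. In BT-474 the start peak was near the calling limit on vehicle and was not called on EGF or HRG.

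Inside the gene, the intron 36 site was called in all lists except pSKBr3, at 44.3 in LRSKBr3, 48.8, 40 and 20 in SKBr3 on vehicle, EGF and HRG, and 16.8, 12.8 and 31.5 in BT-474 on the same treatments. The site lies 127629 to 127995 bp from the nearest start of a protein-coding transcript and is in range through another start inside the gene. In BT-474 on EGF and HRG it was the only MTOR peak. It holds 2 AP-1 words, and the printed one lies 18 to 348 bp from the peak centres. The percentile on HRG minus that on vehicle was -28.7 in SKBr3 and 14.7 in BT-474, where all shared sites near any gene had medians of 2.67 and 2.46. A percentile also depends on how many peaks its list holds, and the lists differ in that (32183 on vehicle and 37195 on HRG in SKBr3, 32259 and 41271 in BT-474). Further MTOR peaks were weak: in intron 30 in SKBr3 on vehicle (16.3) and EGF (10.8), in coding exon 10 in LRSKBr3 (9.60), and in intron 1 of EXOSC10, a nuclear exosome gene beyond the 3′ end, in pSKBr3 (16.7) and LRSKBr3 (30.3).

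RPTOR (ENSG00000141564, chr17:78518619-78940171, plus strand) had the highest percentiles of the 8 genes in all 8 lists. The peaks over its start were at 96.6 in pSKBr3, 95.7 in LRSKBr3, 93.5 in SKBr3 on vehicle, 93.9 on EGF and 93.6 on HRG. In SKBr3 they ran on into intron 1, with widths of 6277, 5258 and 6025 bp in the same order. In LRSKBr3 the same stretch was called as 2 peaks, the second at 83.1, and pSKBr3 had a single peak of 1634 bp. In BT-474 the start peak was at 64.5 on vehicle, 1.72 on EGF and 11.8 on HRG, and HRG gave another in intron 1 (42.7). The RPTOR start was thus steady across the SKBr3-derived lists and of much lower percentile on both growth factors in BT-474.

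The intron 3 site of RPTOR, near the start of a shorter transcript, was strong everywhere. Its percentile was 91.2 in pSKBr3, 94.8 in LRSKBr3, 90.6, 88.0 and 87.7 in SKBr3 on vehicle, EGF and HRG, and 94.5, 90.5 and 89.7 in BT-474. In BT-474 the difference from vehicle was -4.02 points on EGF and -4.82 on HRG here, and -62.7 and -52.6 at the start. The TNAAGGTCA word printed above lies 3 to 79 bp from the centre in LRSKBr3 and the BT-474 lists and 146 to 498 bp from it in pSKBr3 and the SKBr3 lists. The centre is the midpoint of the called peak, so these distances also follow where its edges were called. A site in intron 6 was shared by the BT-474 lists (42.6, 42.0 and 25.9) and SKBr3 on EGF (27.0).

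The remaining RPTOR peaks were confined to 1 or 2 of the 8 lists. LRSKBr3 and SKBr3 on HRG shared a site in intron 1 (14.5 and 38.6) and another in intron 3 (17.3 and 42.5). SKBr3 on HRG had a peak in intron 29 (50.4), pSKBr3 one in intron 6 (27.2) and LRSKBr3 one 2186 bp upstream (5.56). Just past the 20 kb limit, a site in RPTOR intron 20, 22535 to 23244 bp from a start, was present in all 8 lists, at 89.0 to 93.8 in the SKBr3-derived lists and at 31.4, 48.6 and 75.9 in BT-474 on vehicle, EGF and HRG. A second, weaker pSKBr3 peak in this stretch, 21884 bp from a start, was at 7.63. Neither is in the counts above, whereas the peaks at 17512 to 19331 bp are.

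RICTOR (ENSG00000164327, chr5:38938022-39074504, minus strand) was bound in 6 lists, at 2 places. At its start, within exon 1 of the divergent noncoding gene ENSG00000289196, LRSKBr3 (320 bp upstream, percentile 49.8) and SKBr3 on HRG (296 bp, 38.3) had a peak. The upstream site with the printed ERRE was called in SKBr3 on vehicle (6673 bp, 43.9) and EGF (6662 bp, 20.9), in BT-474 on EGF (6592 bp, 32.8) and, at the calling limit, in LRSKBr3 (6822 bp, 1.5). In BT-474 on HRG a peak of 7836 bp (36) spans the stretch from near the start to the upstream site. In SKBr3 the peak was upstream on vehicle and EGF and at the start on HRG. pSKBr3 and BT-474 on vehicle had no RICTOR peak in range, and their nearest lay 21846 and 21903 bp away in OSMR, the oncostatin M receptor gene, where all 8 lists had a peak.

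At the AKT1 side of the 20 kb limit, peaks 20200 to 20410 bp away were stronger than those counted: 84.1 in pSKBr3, 83.0 in LRSKBr3 and 70.5 in SKBr3 on HRG. One TSC2 peak on HRG fell 20259 bp away (25.0).

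Resistant and parental cells were compared site by site. Of the 28 member sites in these 2 lists, 13 were common (46.4%), 14 were found in LRSKBr3 only (50%) and 1 in pSKBr3 only, the RPTOR intron 6 site. Among sites near any protein-coding gene, 49.0% were common, 46.2% were LRSKBr3 only and 4.81% pSKBr3 only, and the shares at the members were close to these. The LRSKBr3-only sites number 4 at RPTOR, 2 each at MTOR, RICTOR, AKT1 and TSC2, and 1 each at AKT2 and PIK3CA. RICTOR and PIK3CA were bound in LRSKBr3 and not in pSKBr3, as were 14.7% of all genes, and no member showed the reverse, as did 1.84%.

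At the 13 common sites the percentile was higher in LRSKBr3 at 10 (76.9% of the common sites near any gene were), with a median difference of 13.6 points against 9.75 for all. The differences ranged from -4.82 at the MTOR start to 62.0 in NHERF2 intron 2 upstream of TSC2. All 4 common TSC2 sites were higher in LRSKBr3 (by 62.0, 13.6, 52.6 and 7.0 points), as were the AKT1 site (30.5), the AKT2 start (39.7) and the TSC1 start (21.8). The RPTOR start and the MTOR start, both strong in pSKBr3, differed by -0.900 and -4.82. These percentiles also depend on how many peaks each list holds, 22539 in pSKBr3 and 39777 in LRSKBr3.

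Of the 14 LRSKBr3-only member sites, 4 had a peak in SKBr3 on vehicle (29.6% of all such gene-near sites did), 3 on EGF (33.0%) and 6 on HRG (46.7%). The pSKBr3 and SKBr3 vehicle lists also differ, with starvation described for the second alone, so that their source and the serum cannot be told apart: RICTOR and PIK3CA were bound on vehicle and not in pSKBr3 (7.85% of all genes), and AKT2 the other way round (10.8%). The difference that RICTOR and PIK3CA show between LRSKBr3 and pSKBr3 is not seen between LRSKBr3 and SKBr3 on vehicle. pSKBr3 is the smallest list, and when every list was cut to its size by score, LRSKBr3 kept 14 member peaks, the LRSKBr3-only sites fell to 3 of 17 (21.8% of the sites near any gene) and the pSKBr3-only sites were 3 (17.5%).

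**Figure D4:**
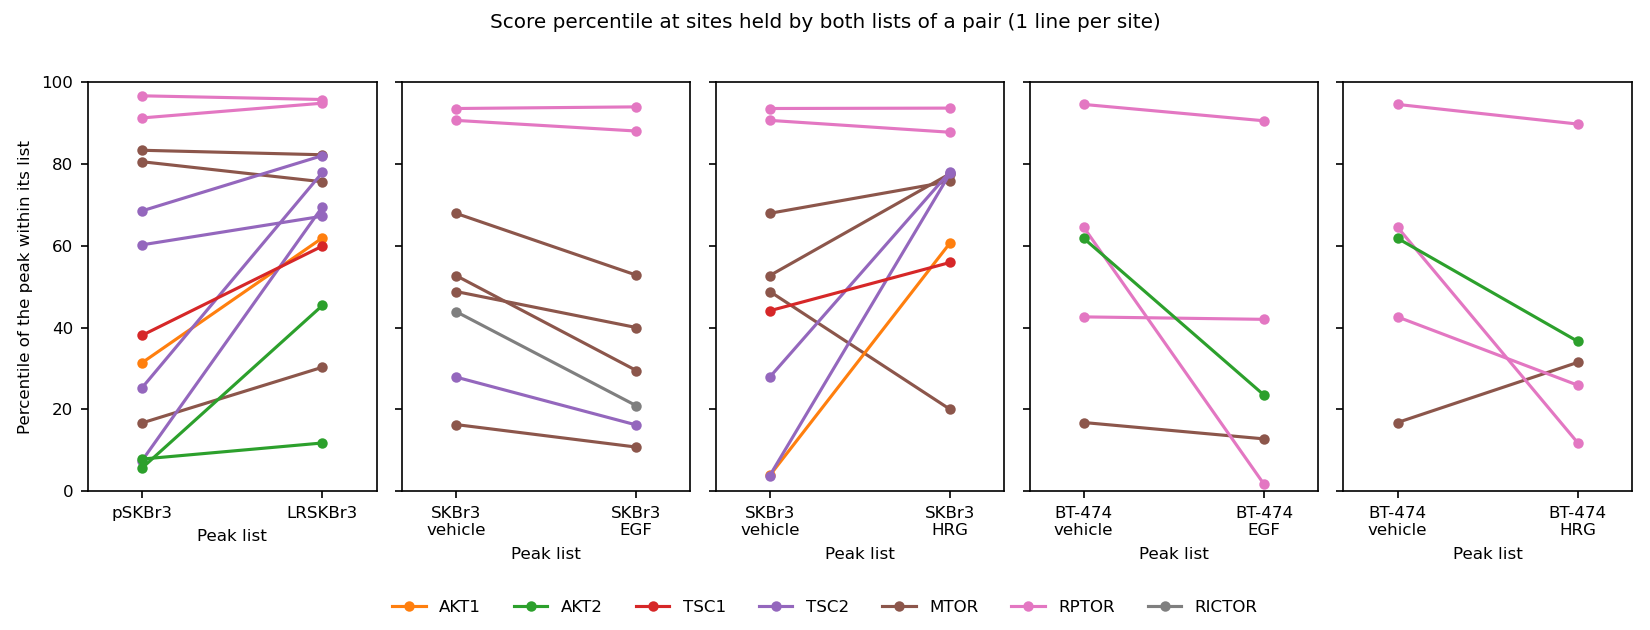
Percentile within its list (y axis, 0 to 100) of the strongest peak at each site held by both lists of a pair, 1 line per site and 1 panel per pair, coloured by gene. Of the 13 lines from pSKBr3 to LRSKBr3, 10 rise, from SKBr3 vehicle 1 of 8 rises on EGF and 7 of 9 on HRG, and in BT-474 none of 5 rises on EGF and 1 of 5 on HRG.

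In SKBr3, the vehicle, EGF and HRG lists gave 27 member sites. Of these, 6 were common to all 3 lists (32.4% of the sites near any gene were), 15 were growth factor-induced, that is called on EGF and/or HRG and not on vehicle (46.8%), 5 were on vehicle and 1 growth factor (11.2%), and 1, at PIK3CA, was on vehicle only (9.65%). The common sites include the MTOR start, MTOR intron 36, the RPTOR start and intron 3, and NTHL1 intron 4 upstream of TSC2. Of the growth factor-induced sites, 13 were on HRG only (30% near any gene), 1 on EGF only (RPTOR intron 6) and 1 on both (AKT2). The HRG-only sites fell at TSC2 (5), RPTOR (3), AKT2 (3), RICTOR (1) and TSC1 (1).

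The EGF and HRG comparisons share the same vehicle list, so their values are given side by side. Against vehicle, AKT2 was bound on EGF (7.76% of all genes were gained) and on HRG (16.5%). AKT1, PIK3CA and TSC1 were bound on vehicle and not on EGF (5.63% of all genes), and PIK3CA on vehicle and not on HRG (4.31%). At the 8 sites held by vehicle and EGF, the percentile was higher on EGF at 1, the RPTOR start (41.1% of such sites near any gene were higher), with a median difference of -10.2 points against -1.91 for all. At the 9 held by vehicle and HRG, it was higher on HRG at 7 (56.9% for all), with a median of 11.9 against 2.67. The widest of these differences on HRG were at the intergenic TSC2 site (73.8), the AKT1 site (56.8) and NTHL1 intron 4 (50.2), while on EGF they were at the MTOR start (-23.2) and the RICTOR upstream site (-23.0).

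In BT-474, the 16 member sites divide into 5 common (40.1% of the sites near any gene), 5 growth factor-induced (31.1%), 6 on vehicle only (12.1%) and 0 on vehicle and 1 growth factor (16.7%). The common sites are MTOR intron 36, the RPTOR start, intron 3 and intron 6, and AKT2 intron 4. The induced sites lie at PIK3CA (2), RICTOR, AKT2 and RPTOR. The vehicle-only sites are 3 at TSC1, 2 at AKT2 and the MTOR start. RICTOR and PIK3CA were bound on EGF and not on vehicle (3.04% of all genes), and likewise on HRG (8.21%), against the same vehicle list (1.58% of all genes on both). TSC1 was bound on vehicle and not on EGF (13.7%) or HRG (5.88%). At the 5 shared sites, none was higher on EGF (32.7% for all sites near any gene) and 1 was higher on HRG (62.2%), with median differences of -4.02 and -16.7 points, against -3.86 and 2.46 for all such sites. With all lists cut to equal size, 3 members were bound in BT-474 on vehicle, 4 on EGF and 1 on HRG. The BT-474 sites were then 1 common of 9 (49.5% of the sites near any gene), 2 induced (23.6%), 4 on vehicle only (13.3%) and 2 on vehicle and 1 growth factor (13.6%). The 19 SKBr3 sites were then 3 common (35.3%), 11 induced (41.0%), 2 on vehicle only (10.9%) and 3 on vehicle and 1 growth factor (12.7%).

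Near the 5′ end of the gene, within 5 kb, LRSKBr3 had a peak at all 8 members (45.7% of all genes), pSKBr3 at 5 (33.8%), SKBr3 at 5 on vehicle (26.8%), 3 on EGF (26.1%) and 5 on HRG (40.3%), and BT-474 at 3 on vehicle (24.1%), 1 on EGF (15.3%) and 2 on HRG (23.1%). RPTOR is the gene counted in all 8. RICTOR entered this count in LRSKBr3, SKBr3 on HRG and BT-474 on HRG, and PIK3CA in LRSKBr3 and SKBr3 on vehicle. This count is not given for lists cut to equal size. Within 20 kb of a start, 7 members were then bound in LRSKBr3 and 6 in pSKBr3.

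Within 100 bp of the peak centre, the ERRE was found at 3 of the 113 member peaks, 2 of 11 in BT-474 on vehicle, both at TSC1 (6.41% of all peaks of that list hold it), and 1 of 27 in LRSKBr3, at RICTOR (7.40%). The other 6 lists had none, where 5.57% to 8.10% of all peaks hold it. The looser TNAAGGTCA was found at 3 of 11 member peaks in BT-474 on vehicle (9.63%), 1 of 7 on EGF (9.75%), 1 of 9 on HRG (8.99%) and 2 of 27 in LRSKBr3 (10.9%), and at none in pSKBr3 or SKBr3. A window of 250 bp to each side gave 1 of 14 in pSKBr3 (17.5% of all peaks), 2 of 12 in SKBr3 on vehicle (16.4%), 2 of 10 on EGF (17.5%) and 0 of 23 on HRG (13.6%). Within 100 bp, the shorter AAGGTCA, which both contain, was at 4 of 27 in LRSKBr3 (25.5%), 3 of 11 in BT-474 on vehicle (21.7%), 2 of 12 in SKBr3 on vehicle (25.2%), 1 of 10 in SKBr3 on EGF (27.3%), 1 of 23 in SKBr3 on HRG (21.8%), 1 of 7 in BT-474 on EGF (22.1%), 1 of 9 in BT-474 on HRG (19.9%) and 0 of 14 in pSKBr3 (27.4%). The AP-1 words were found at 4 of 23 member peaks in SKBr3 on HRG (9.75% of all peaks), 2 of 10 on EGF (12.7%) and 1 of 12 on vehicle (6.56%). These HRG peaks are at MTOR intron 36, RPTOR intron 3, the outermost AKT2 site and TSC1 intron 1, and those on EGF are at MTOR intron 36 and AKT2. In BT-474 the AP-1 counts were 0 of 11 on vehicle (5.94%), 1 of 7 on EGF, at RPTOR intron 3 (6.36%), and 1 of 9 on HRG, at AKT2 (7.39%), while LRSKBr3 had 1 of 27 (5.70%) and pSKBr3 0 of 14 (5.69%). The member windows were richer in GC than all peaks in 6 lists, with medians of 64.9% against 51.7% in pSKBr3 and 63.7% against 49.3% in LRSKBr3, and about equal in BT-474 on EGF and HRG (39.8% and 39.3%, against 39.3% in both). No part of GC in these counts was tested.

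The wider pathway was followed as a list of 72 further genes. LRSKBr3 had a peak at 61 (84.7%, Wilson 95% interval 74.7 to 91.2, against 69.9% of all genes) and pSKBr3 at 45 (62.5%, 51.0 to 72.8, against 57.1%). SKBr3 had 48 on vehicle (66.7%, 55.2 to 76.5, against 54.1%), 53 on EGF (73.6%, 62.4 to 82.4, against 56.3%) and 59 on HRG (81.9%, 71.5 to 89.1, against 66.4%). BT-474 had 52 on vehicle (72.2%, 61.0 to 81.2, against 53.0%), 46 on EGF (63.9%, 52.4 to 74.0, against 42.3%) and 50 on HRG (69.4%, 58.0 to 78.9, against 55.3%). The intervals cover counting error over genes only and are no test against all genes. The number of starts was not matched to that of other genes.

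**Figure D5:**
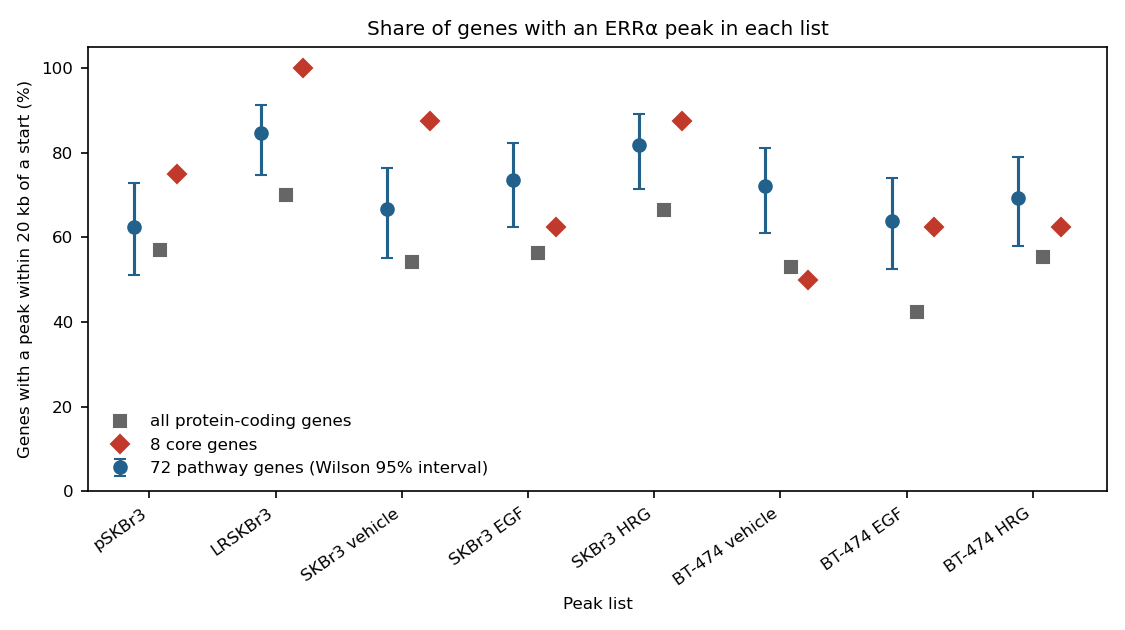
Percentage of genes with a peak within 20 kb of a start in each list, for the 72 further pathway genes (circles, with Wilson 95% intervals), all protein-coding genes (squares) and the 8 core genes (diamonds). The 72 genes lie above all genes in every list, from 62.5% in pSKBr3 to 84.7% in LRSKBr3, and the core genes lie below all genes in BT-474 on vehicle.

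The counts by role stand beside a share of all genes bound that was itself highest in LRSKBr3 (69.9%) and SKBr3 on HRG (66.4%) and lowest in BT-474 on EGF (42.3%), and no role was compared with other genes. Of the 18 genes of amino acid sensing, 16 were bound in LRSKBr3, 11 in pSKBr3, 11, 11 and 15 in SKBr3 on vehicle, EGF and HRG, and 10, 8 and 12 in BT-474. Of 19 effectors downstream of AKT and mTOR, 17 were bound in LRSKBr3, 12 in pSKBr3, 10, 14 and 16 in SKBr3, and 13, 11 and 11 in BT-474. The 7 negative regulators upstream of AKT were nearly all bound in each list, with 5 in pSKBr3 as the lowest number. The 8 other subunits of the mTOR complexes gave 5 to 7 in each list.

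A peak in all 8 lists was found at 27 of the 72 genes (37.5%, against 26.8% of all genes). Examples with the highest percentile in LRSKBr3, all at 98.7, are MLST8, the subunit shared by both mTOR complexes, STK11 (LKB1), the kinase that activates AMPK, LAMTOR5, a subunit of the lysosomal anchor of mTORC1, and LPIN1, a lipin that mTORC1 phosphorylates, with INPP5D tied. A peak in no list was found at 5 of the 72 (6.94%, against 15.3% of all genes), namely PIK3R6, TELO2, SESN3, FOXO4 and RPS6KB1, which encodes the main S6 kinase of the mTORC1 branch. A peak in all 5 SKBr3-derived lists and in no BT-474 list was found at 6 of the 72 (8.33%, against 5.62% of all genes) and, among the core genes, at TSC2. The reverse was found at DEPTOR alone (1.39%, against 2.11%).

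Bound in LRSKBr3 and not in pSKBr3 were 16 of the 72 (22.2%, against 14.7% of all genes). They include the PI3K subunit PIK3CB, the phosphatase INPP4B, the adaptors GAB1 and GAB2, the mTORC2 partner PRR5L, the amino acid sensing genes RRAGC, LAMTOR3, NPRL3, SESN2 and SLC38A9, and the effectors EIF4EBP1, PDCD4, SGK1, GSK3B and FOXO3. By its strongest peak in LRSKBr3, GAB2 was at 68.1, GSK3B at 64.7 and EIF4EBP1 at 51.3. None of the 72 showed the reverse. With lists cut to equal size, 49 of the 72 were bound in LRSKBr3 and 45 in pSKBr3. INPP4B, GAB1, GAB2, PRR5L, LAMTOR3, SESN2 and GSK3B also had a peak in SKBr3 on vehicle.

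Bound on EGF and on HRG but not on vehicle in SKBr3 were 7 of the 72 (9.72%, against 6.0% of all genes), among them PIK3R1, SLC38A9, EIF4EBP2, EIF4E, PDCD4 and SGK1. PIK3R1, the main regulatory subunit of PI3K, reached 90.1 on EGF and 70.9 on HRG. In BT-474 no gene of the 72 showed that pattern (1.58% of all genes), and PIK3R1 had a peak on vehicle there too, at 72.8.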

How the data were processed

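ChIP-seq of ERRα comprised 13 ChIP and 6 input libraries. According to the submitters' processing notes the authors used BWA 0.5.9 and SAMtools 0.1.18, with hg19 as the genome, and peaks were called by MACS (P threshold 1e-05). The deposited score is the authors' MACS value (-10 log10 of P), with a minimum of 50, and many strong peaks are tied. Scores depend on depth, so they were used only as percentiles within a list, ties at their middle rank.

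Starts were those of all transcripts in the GENCODE annotation lifted to GRCh37. Chains of peaks with 1 bp or more in common formed a site. Words were sought within 100 bp of peak centres in the GRCh37 sequence. A centre is the midpoint of the called peak and not its highest point, so a word in a wide peak can fall outside the window. No test was run, since each condition has 1 list, and no call was treated as absence of binding. The steps were tested on simulated data, with Python 3.11.15, numpy 2.4.6, scipy 1.17.1 and pysam 0.24.0. The genes and lists were chosen with earlier results of these data known. Named were the 8 genes, genes annotated at their peaks and those of the wider list that differ between lists, are bound in all 8 or in none. INPP5D was named in a tie, and PIK3R1 was picked for its BT-474 value after this was seen. Some genes and sites that enter the counts are not reported here by name. Alternatives changed the distance, the starts, the P threshold, the list size, the overlap and the motif window, and the shorter word AAGGTCA was added after the first counts were seen.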

Additional observations from a re-analysis of the deposited data

Results flagged for a closer look

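At some genes the number of peaks rose on a growth factor in 1 line and fell in the other. These differences were not tested, since each condition has 1 list, and no share of all genes with opposite signs is given. For AKT2, the number of peaks on EGF minus that on vehicle was 1 in SKBr3 and -2 in BT-474, and on HRG it was 4 in SKBr3 and -1 in BT-474. For PIK3CA it was -1 in SKBr3 and 1 in BT-474 on EGF, and the same values, -1 and 1, were found on HRG. For TSC1 on HRG it was 1 in SKBr3 and -3 in BT-474. EGF and HRG share the vehicle list within each line, so the pair of values for a gene is not independent. The PIK3CA peaks behind these numbers are single peaks with percentiles of 20.9 to 30.6, at different places in SKBr3 and BT-474.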

How the results depend on the processing

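The member counts above depend on the distance, the starts, the threshold and the list size more than on how sites are matched. No paired analysis was possible because the replicates are pooled in the deposited lists, and for the same reason no replicate was left out. A count of peaks, genes or sites is given below where it moved by more than 1.5 times, and the cause was not tested. No share of all genes or gene-near sites is given at these settings, apart from the sites in lists of equal size above. Whether the members moved more than other genes cannot be read from these counts.

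Within 10 kb of a start, SKBr3 had 6 member peaks on EGF and 14 on HRG, the growth factor-induced sites numbered 6 in SKBr3 and 3 in BT-474, and pSKBr3-only sites 0. Within 5 kb the peaks were 7 in pSKBr3, 15 in LRSKBr3, 7, 5 and 9 in SKBr3 on vehicle, EGF and HRG, and 7, 3 and 5 in BT-474. There 3 members were bound in SKBr3 on EGF, and 2 and 3 in BT-474 on EGF and HRG. Of the sites within 5 kb, 7 were common to pSKBr3 and LRSKBr3, 8 LRSKBr3 only and 0 pSKBr3 only, 3 were growth factor-induced and 1 on vehicle and 1 growth factor in SKBr3, and in BT-474 3 were common and 2 induced.

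With the 5′ end of the gene as the only start, peaks were 9 in pSKBr3, 5 and 13 in SKBr3 on EGF and HRG, and 4, 3 and 4 in BT-474, with 3 members bound in BT-474 on EGF and 3 on HRG. The LRSKBr3-only sites were then 9 and pSKBr3-only sites 0, in SKBr3 7 were induced and 3 on vehicle and 1 growth factor, and in BT-474 1 was common and 3 vehicle only. With starts of protein-coding transcripts only, peaks were 6 in SKBr3 on EGF, 7 in BT-474 on vehicle and 4 on EGF, pSKBr3-only sites 0, SKBr3 sites on vehicle and 1 growth factor 3, and BT-474 common sites 2. Members bound moved less, to 5 in pSKBr3 and 6 each in SKBr3 on vehicle and HRG.

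At P of at most 1e-08, peaks were 9 in pSKBr3, 16 in LRSKBr3, and 7, 2 and 5 in BT-474 on vehicle, EGF and HRG, and 3 members were bound in SKBr3 on EGF and 1 in BT-474 on EGF. Common sites were 8 and LRSKBr3-only sites 8, in SKBr3 3 were on vehicle and 1 growth factor and 2 vehicle only, and in BT-474 1 was common, 3 induced and 2 on vehicle and 1 growth factor. At 1e-10, peaks were 7 in pSKBr3, 15 in LRSKBr3, 7 and 4 in SKBr3 on vehicle and EGF, and 6, 1 and 2 in BT-474. Members bound were 4 and 2 in SKBr3 on vehicle and EGF, and 2, 1 and 1 in BT-474. Common sites were 7, LRSKBr3-only sites 8 and pSKBr3-only sites 0, in SKBr3 3 were common and 3 on vehicle and 1 growth factor, and in BT-474 1 was common and 1 induced.

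With every list cut to the size of the smallest, 22539 peaks (22541 in LRSKBr3 and BT-474 on EGF, where ties were kept), member peaks were 14 in LRSKBr3, 4 in SKBr3 on EGF, and 7 and 1 in BT-474 on vehicle and HRG, with 2 members bound in SKBr3 on EGF and 1 in BT-474 on HRG. LRSKBr3-only and pSKBr3-only sites were 3 each, in SKBr3 3 were common, 3 on vehicle and 1 growth factor and 2 vehicle only, and in BT-474 1 was common, 2 induced and 2 on vehicle and 1 growth factor. With an overlap of 50% of both peaks, pSKBr3-only sites were 2, and with centres within 500 bp no class moved. With 250 bp to each side of the centre, the ERRE was also at 1 member peak each in SKBr3 on vehicle, SKBr3 on EGF and BT-474 on EGF. TNAAGGTCA was then at 1 in pSKBr3 and 2 each in SKBr3 on vehicle, SKBr3 on EGF and BT-474 on EGF, and the AP-1 words at 1 in pSKBr3, 3 in LRSKBr3, 2 in SKBr3 on vehicle, and 1 and 3 in BT-474 on vehicle and HRG. AAGGTCA was then at 4 in pSKBr3, 7 in LRSKBr3, 6, 4 and 1 in SKBr3, and 3, 2 and 2 in BT-474. The counts of the 72 wider genes stayed within 1.5 times in each alternative run. With lists of equal size, that of LRSKBr3 fell from 61 to 49 while that of pSKBr3 stayed at 45.

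A missing call is not an absence of binding, since the lists hold no counts below the threshold. Peaks at 1.5 to 5.69, such as those at RICTOR in LRSKBr3, AKT1 on vehicle and the AKT2 start in pSKBr3, lie close to that limit.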

Other observations

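Some wider pathway genes were bound in 1 line background only. DEPTOR, an inhibitory subunit of both mTOR complexes, had 3, 4 and 4 peaks in BT-474 on vehicle, EGF and HRG, with strongest percentiles of 98.3, 97.3 and 98.4, and no peak in the 5 SKBr3-derived lists. The 6 genes with a peak in all 5 SKBr3-derived lists and none in BT-474 are PIK3CD and PIK3R2, subunits of PI3K, and PIK3IP1, an inhibitor of PI3K, with NPRL2, RPS6 and FOXO1. PIK3IP1 was at 91.0 in pSKBr3, 96.7 in LRSKBr3 and 90.9, 93.7 and 95 in SKBr3 on vehicle, EGF and HRG. DEPTOR and PIK3IP1 were picked for their values after these were seen, and the difference between the lines was not tested.

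At some wider genes the number of peaks differed between treatments while the gene stayed bound. PIK3CD had 1 peak on vehicle, 1 on EGF and 10 on HRG in SKBr3, and 2 in pSKBr3 and 7 in LRSKBr3. PRR5, a partner in mTORC2, had 2, 1 and 7 in SKBr3 and 3 and 6 in pSKBr3 and LRSKBr3. GSK3B had 5, 6 and 10 in BT-474 on vehicle, EGF and HRG. These genes too were picked after their values were seen.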
